A study of Mus musculus with 8 samples.

Results

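Expression across autosomal protein-coding genes was compared between haematopoietic stem cells of 2 Yap1 Taz null libraries and 2 wild-type libraries. The cells had been sorted from the bone marrow of C57BL/6 mice. Wild-type and null mice alike carried Mx1-Cre and received 6 intraperitoneal injections of 10 mg/kg polyI:C, 1 every other day, and cells were taken 1 week after Cre was induced. The wild type is labelled Mx1Cre;Wt, the null Taz Δ/Δ;Yap1 Δ/Δ, and the 4 other libraries of the series are 2 Scribble Δ/Δ and 2 triple null ones that lack all 3 genes. Mx1-Cre is switched on by interferon, which polyI:C induces, and it is not restricted to blood cells, so deletion can reach other tissues of the mouse. The deposited values are TPM, a transcript share scaled to the same total in each library. They carry no read number, and depth is therefore unknown. Of 33641 gene symbols, 14893 reached 1 TPM in at least 2 of the 4 libraries, and 12243 of these were autosomal protein-coding genes, after symbols of the -ps and Gm types had been set aside. Whether a genotype's 2 libraries stem from different mice is not stated, so the p-values reflect library-to-library spread alone, and that spread may be technical.

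YAP1 and TAZ are related co-activators that bind TEAD transcription factors and drive growth genes in many tissues. The Hippo kinases phosphorylate them and hold them in the cytoplasm, and polarity proteins such as Scribble anchor the cascade at the membrane. In haematopoietic stem cells, which are mostly quiescent and respond to interferon by entering division, the place of this pathway is less settled than in epithelia.

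The targeted genes were scarcely expressed. Yap1 (mm10 chromosome 9, 7931999 to 8004596) stood at 2.00 and 2.15 TPM in wild type and at 2.13 and 6.63 TPM in the null libraries. Wwtr1, the gene of the TAZ protein (chromosome 3, 57455649 to 57575910), stood at 0.730 and 1.19 TPM in wild type and at 1.095 and 1.15 TPM in the null. Both ranges overlapped, and a gene-level value does not reveal whether an exon is missing, so the labels are not checked by these values. Taz, as a symbol in these tables, denotes tafazzin, a mitochondrial gene that was not deleted. The sorted cells had stem cell markers at a summed 2140 to 2220 TPM in wild type and 2290 to 2550 TPM in the null, with all 12 markers above the low-value filter. The Y-linked gene Eif2s3y was at 45.8 and 56.1 TPM in wild type and at 4.16 and 4.63 TPM in the null, and at 56.5 to 64.1 TPM in the other 4 libraries, so the 2 Yap1 Taz null libraries stood apart. Kdm5d (47.5 and 42.9 against 5.25 and 7.31 TPM) and Ddx3y (22.9 and 18.1 against 2.48 and 2.05 TPM), also Y-linked, differed likewise, while Y-linked Uty was at 25.2 and 25.8 against 10.6 and 20.02 TPM and was not called (limma adjusted p = 0.245). The labels give no sex, and in the comparison with wild type a difference in sex between the mice cannot be told apart from genotype. Genes at 1 TPM or more numbered 14024 and 14409 in wild type and 14631 and 14970 in the null.

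Against wild type, the Yap1 Taz null libraries had lower levels of interferon-inducible GTPases and of antigen-presenting MHC genes, and higher levels of scattered single genes led by the kallikrein Klk1b22. Of the 12243 genes, 56 were called higher (0.457%) and 44 lower (0.359%), which is 0.817% in all. A gene was called when its adjusted p in limma (Benjamini-Hochberg over all 14893 genes kept) was under 0.05, and 1771 (14.5%) had an unadjusted p under 0.05. Differences are on the log2(TPM + 1) scale, which understates changes of genes at low levels. All 100 called genes had groups of 2 libraries that did not overlap, as did 47.5% of all genes tested (32.8% higher and 14.7% lower). The difference was 2 or more for 25 called genes (10 higher and 15 lower) and under 1 for 20. The share called rose with level, from 0.338% of genes with a mean under 5 TPM to 3.04% of genes at 100 TPM or more.

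**Figure D1:**
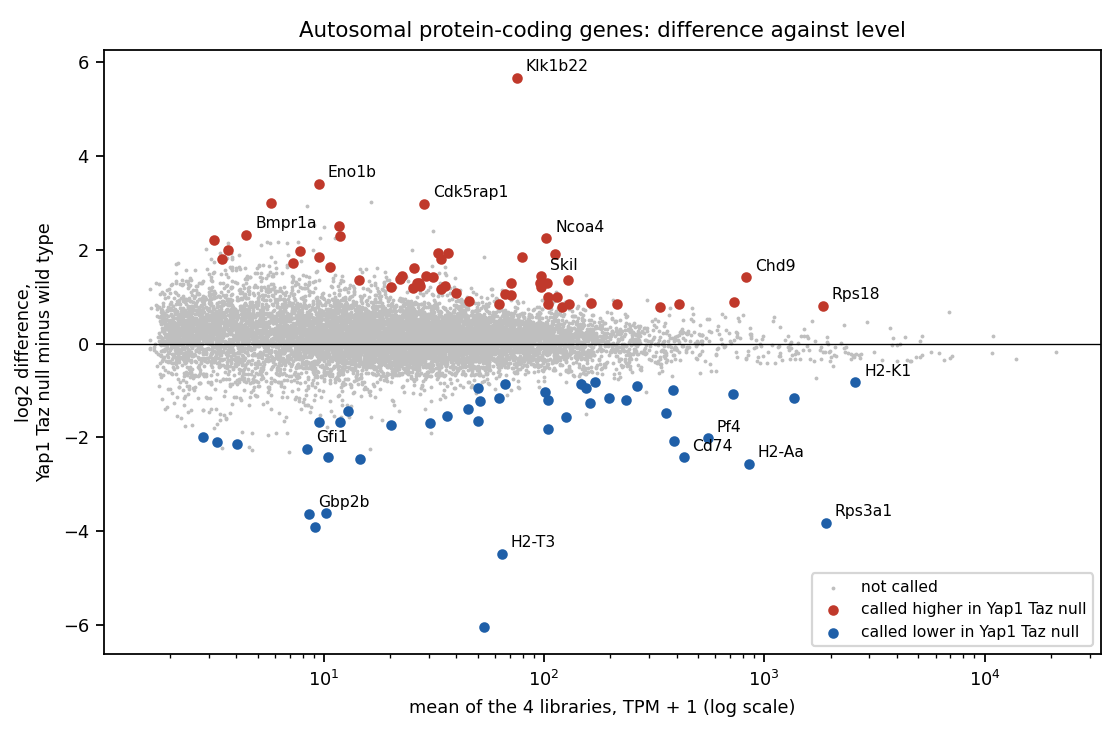
Log2 difference between Yap1 Taz null and wild type (vertical axis) against the mean of the 4 libraries in TPM + 1 (horizontal axis, log scale), 1 point per autosomal protein-coding gene. Red points are the 56 genes called higher, blue points the 44 called lower, and most of the called genes of highest level, such as H2-Aa, Cd74 and Rps3a1, lie below 0.

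The number of calls rested on the few libraries. Leaving out wild type 1 or 2 gave 28 or 32 calls, and leaving out Yap1 Taz null 1 or 2 gave 30 or 26. Dropping a triple null library gave 60 (first) or 56 (second), and dropping a Scribble null library gave 88 or 87. Called in each of those 8 fits were 19 genes, of which 6 were higher (Klk1b22, Eno1b, Ncoa4, Skil, Chd9 and H2-T23) and 13 lower, among them S100a11, Tgtp2, Igtp, Iigp1, H2-Ab1, Cd74, H2-Aa, H2-Q2, Gbp2b, Rps3a1 and H2-T3. The median log2 difference of all 12243 genes was 0.13, and scaling each library by its median ratio brought it to 0.009. Under that scaling the split became 33 higher and 53 lower, and under quantile normalization 43 and 53, so list medians below are to be read against 0.13.

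The interferon-inducible GTPases were the list with the largest share of called members. They comprise the IRG family, which disrupts the vacuoles of intracellular pathogens, and the guanylate-binding proteins, or GBPs, which coat them. All 16 autosomal members were measured, and all lay below 0, 15 without overlap between the groups, against 14.7% of all genes without overlap in that direction. Of these, 9 were called lower (56.2%, against 0.359% of all genes) and none higher. At an unadjusted p under 0.05 in limma 14 were lower and 0 higher, and the median was −1.12. Among the IRG genes, Igtp stood at 186.6 and 186.5 TPM in wild type and at 53.9 and 72.7 TPM in the null, and it fell by 1.56 ± 0.16 (log2 ± SE, limma adjusted p = 0.00327). Iigp1 went from 76.7 and 73.1 TPM to 24.4 and 21.6 TPM, a log2 difference of −1.66 (limma adjusted p = 0.00259). For both genes the lower wild-type library was more than 2 times the higher null one.

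The near-identical pair Tgtp1 and Tgtp2 changed together. Tgtp2 stood at 333 and 325 TPM in wild type and at 142 and 143 TPM in the null, and Tgtp1 at 226 and 228 against 103 and 85.0 TPM. Reads of the 2 genes may have been shared between them, and their sum fell by 1.23 (limma adjusted p = 0.00168). Irgm2, whose annotated span on chromosome 11 overlaps that of Igtp, went from 66.4 and 63.0 TPM to 34.6 and 31.9 TPM, with an adjusted p of 0.0495 in limma. Of the GBPs, Gbp4 (31.5 and 28.9 against 7.88 and 8.81 TPM), Gbp6 (51.0 and 54.8 against 16.4 and 18.8 TPM) and Gbp2 (73.0 and 68.8 against 26.6 and 32.9 TPM) fell by 1.74, 1.54 and 1.23. Gbp7 fell by 0.87, the smallest of the called differences in the family.

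The 7 members not called were Gbp10, Gbp8, Irgm1, Gbp5, Gbp9, Gbp3 and Gvin1, with log2 differences between −2.32 and −0.30. Gbp2b, a guanylate-binding protein gene outside the list, stood at 15.3 and 14.4 TPM in wild type and at 0.353 and 0.209 TPM in the null. Its log2 difference was −3.63 (limma adjusted p = 0.00100), and it passed the low-value filter only through wild type. The number of GTPases called lower was 3 without either wild-type library, 4 when Yap1 Taz null 1 was dropped, 3 when Yap1 Taz null 2 was dropped, 6 without either triple null library, 7 without either Scribble null library and 5 with the 4 libraries alone. The median lay between −1.17 and −1.04 over the 8 fits that leave out a library. In the Scribble null libraries Igtp was at 63.6 and 61.3 TPM and in the triple null ones at 76.2 and 75.5 TPM, so the wild type stood apart from all 3 null genotypes. These comparisons share the wild-type libraries.

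Promoters of called GTPases are shown with the letters of 2 interferon elements because the family had the largest share of calls. A promoter entry was found for 6 of the 9 called genes. Capitals mark a match to TTCNNNGAA, the consensus of the gamma-interferon activation site (GAS), or to GAAANNGAA, a core of the interferon-stimulated response element (ISRE) that IRF factors bind, on either strand. Each line gives the 120 bases before the RefSeq start of a gene (GRCm38.p6), 5′ to 3′ on the gene's strand. The windows are chr11:58199436-58199555 (+) for Igtp, chr11:58214857-58214976 (+) for Irgm2, chr11:49064213-49064332 (−) for Tgtp2, chr3:142620543-142620662 (+) for Gbp2 and chr3:142530216-142530335 (+) for Gbp7.
Igtp: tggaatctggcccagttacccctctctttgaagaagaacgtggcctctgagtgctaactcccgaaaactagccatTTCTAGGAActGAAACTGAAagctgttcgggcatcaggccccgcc
Irgm2: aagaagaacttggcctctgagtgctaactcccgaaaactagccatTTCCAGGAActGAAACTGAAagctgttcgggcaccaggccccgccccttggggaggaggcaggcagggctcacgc
Tgtp2: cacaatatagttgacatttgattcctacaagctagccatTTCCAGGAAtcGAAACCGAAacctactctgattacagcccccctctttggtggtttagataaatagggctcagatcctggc
Gbp2: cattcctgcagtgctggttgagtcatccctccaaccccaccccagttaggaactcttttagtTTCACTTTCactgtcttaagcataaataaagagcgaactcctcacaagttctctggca
Gbp7: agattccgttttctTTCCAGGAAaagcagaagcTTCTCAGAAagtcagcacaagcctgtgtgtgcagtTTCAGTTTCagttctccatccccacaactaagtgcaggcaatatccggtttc

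In Igtp, Irgm2, Tgtp1 and Tgtp2 the GAS match lay 11 bases before the ISRE core match, counted from first base to first base. It began 45 bases before the start in Igtp, 75 in Irgm2, 88 in Tgtp1 and 81 in Tgtp2. These genes are close relatives, and Tgtp1 and Tgtp2 are near-identical copies, so their shared letters are not independent. Gbp2 held an ISRE core match and no GAS match in the 250 bases searched, and Gbp7 held both. Over the 250 bases before the start, the ISRE core was found in all 9 GTPase genes with a promoter entry and GAS in 6. GAS was found in 5 of the 6 called genes and in 1 of the 3 not called. The shares were 28.1% for each motif among 32 genes called lower, 13.6% for GAS and 20.5% for the ISRE core among 44 called higher, and 7.43% and 7.65% among 9569 of all genes. Of the 9 genes called lower that held GAS, 5 were these GTPases, and of the 9 that held the ISRE core, 6 were. The shares among genes called lower thus rest largely on 1 family of related genes. GGAATG, the TEAD motif, was found in 15.6% of those called lower, 9.09% of those called higher and 12.8% of all. Of 789 GAS matches, 17 overlapped an ISRE core match. A match describes letters in a window, not a bound site.

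Interferon-induced genes outside the GTPases showed no shift of that size. Of 53 measured, 4 were higher and 6 lower at an unadjusted p under 0.05 (18.9%, against 14.5% of all genes). Without overlap between the groups, 17 were lower and 9 higher, against 14.7% and 32.8% of all genes. Their median was 0.02, against 0.13 for all genes. Among those of smallest p were Ly6a, the gene of the stem cell marker Sca-1, at 359 and 417 against 176 and 201 TPM (limma adjusted p = 0.0753), and Ifi47, at 409 and 408 against 262 and 285 TPM (limma adjusted p = 0.107). Apobec3, a cytidine deaminase that restricts retroviruses, rose from 139 and 166 TPM to 248 and 299 TPM, by 0.84. It was called in none of the 8 fits that leave out a library.

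MHC class II genes present peptides from outside the cell to helper T cells. The α chain gene H2-Aa stood at 1402 and 1507 TPM in wild type and at 234 and 258 TPM in the null, and it fell by 2.56 ± 0.13 (limma adjusted p = 3.32e-05). The β chain gene H2-Ab1 went from 567 and 693 TPM to 139 and 159 TPM, a log2 difference of −2.07. Cd74, the invariant chain that fills the groove during transport, went from 674 and 768 TPM to 105 and 168 TPM, a difference of −2.43. These 3 genes were called in each of the 8 fits that leave out a library. H2-Ob, a subunit of the H2-O protein that restrains peptide loading, was called in the other direction, from 2.25 and 2.48 TPM to 9.04 and 11.2 TPM, by 1.72, but in none of those 8 fits.

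The class II list had 14 measured members, 3 called lower and 1 higher (28.6%, against 0.817% of all genes), and a median of −0.77. The genes that follow are named for their roles, after their values were seen. Ciita, the master regulator of class II genes, stood at 4.28 and 5.41 TPM in wild type and at 1.39 and 1.66 TPM in the null, without overlap but with a limma adjusted p of 0.182. The DNA-binding factors Rfx5 and Rfxap had log2 differences of 0.03 and −0.09. H2-DMa, which exchanges peptides, was at 107 and 160 against 123 and 140 TPM, with overlapping groups. Of the 14 members, 8 were lower without overlap, against 14.7% of all genes, and the same number were lower at an unadjusted p under 0.05.

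MHC class I genes, which show peptides from inside the cell, had 27 measured members and a median of −0.49. Of these, 6 were called lower and 2 higher (29.6%, against 0.817% of all genes). The classical genes H2-K1 and H2-D1 stood at 3423 and 3214 TPM and at 1813 and 1967 TPM in wild type, and at 1904 and 1820 TPM and 867 and 807 TPM in the null. Their log2 differences were −0.83 and −1.17, with limma adjusted p-values of 0.00705 and 0.00485. Psmb9 and Psmb10, subunits of the immunoproteasome that cuts peptides for class I, fell by 0.99 and 0.87. Psmb8, the third such subunit, was at 137 and 129 against 92.9 and 86.4 TPM (limma adjusted p = 0.137). Tap1, which pumps peptides into the endoplasmic reticulum, was at 140.0 and 119 against 77.4 and 97.6 TPM (limma adjusted p = 0.176). Both were named for their roles.

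Nonclassical class I genes went both ways. H2-T3 stood at 139.7 and 104 TPM in wild type and at 2.91 and 6.60 TPM in the null, a log2 difference of −4.48 ± 0.45 (limma adjusted p = 0.00259). H2-Q2 stood at 16.7 and 19.2 TPM and at 0.887 and 0.268 TPM, a difference of −3.61, and it passed the low-value filter only through wild type. H2-T23, which encodes the Qa-1 ligand of NK cell receptors, rose from 65.4 and 76.4 TPM to 185 and 180.3 TPM, by 1.36 ± 0.13 (limma adjusted p = 0.00236). H2-T22 rose by 1.44, but summed with its near-identical copy H2-T10 the log2 difference was 0.39 with a limma adjusted p of 0.374. Of 96 genes kept between H2-K1 and H2-T3 (chromosome 17, 33996017 to 36190287), 10 were called, against 0.817% of all genes. Of the 10, 9 were H2 genes, of which 21 were kept there. Of the 19 autosomes, chromosome 17 had the largest share of called genes, 2.17%.

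**Figure D2:**
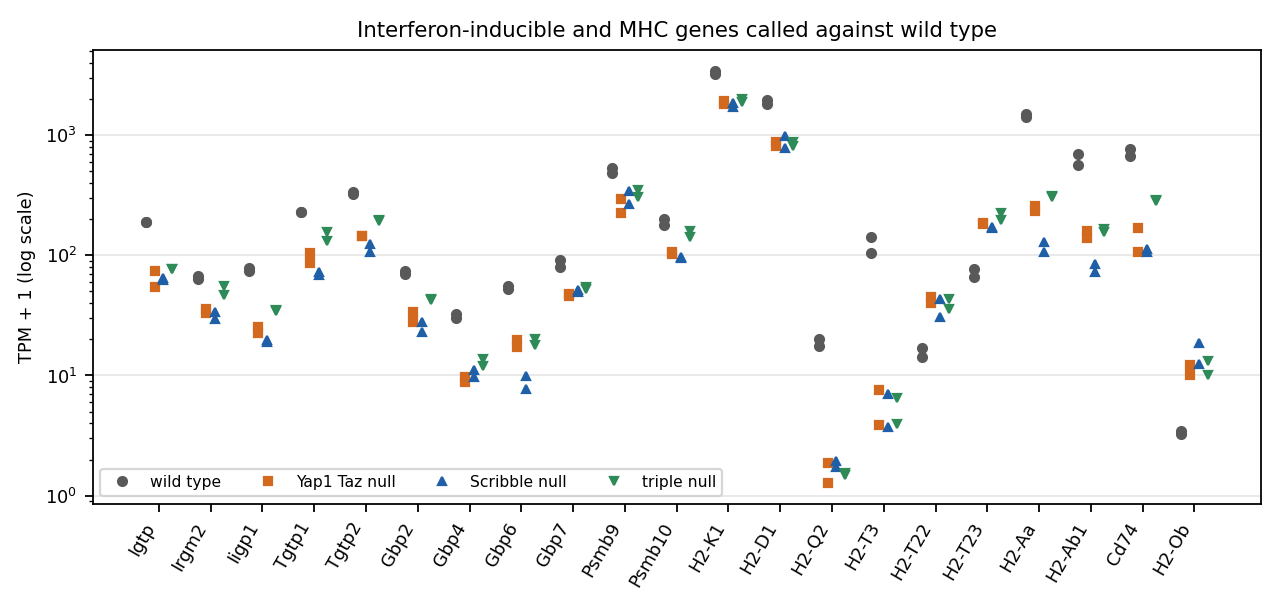
TPM + 1 (vertical axis, log scale) of interferon-inducible and MHC genes called in Yap1 Taz null against wild type, with 2 libraries for each of the 4 genotypes. For the GTPases and most MHC genes the 2 wild-type circles lie above the symbols of all 3 null genotypes, while for H2-T22, H2-T23 and H2-Ob they lie below.

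The largest rise was in Klk1b22, a tissue kallikrein of the secreted serine proteases (chromosome 7, 44112673 to 44116922). It stood at 1.74 and 1.97 TPM in wild type and at 122 and 172 TPM in the null, a log2 difference of 5.67 ± 0.30 (limma adjusted p = 4.47e-05). Masp2, the protease that starts complement cleavage by the lectin route, rose from 0.377 and 0.162 TPM to 7.21 and 11.3 TPM, by 2.99. Cd59a, which blocks the last step of complement on the cell surface, rose from 15.0 and 16.0 TPM to 38.7 and 36.0 TPM, by 1.22. These 3 were the called members (25.0%, against 0.817% of all genes) among 12 complement and kallikrein genes measured of 36 autosomal ones listed. The list joins complement components with tissue kallikreins and was chosen with earlier results of these data known. Its share is therefore no evidence of a change in either family. The median of the 12 was 0.06. Masp2 was among 6 called genes that were under 1 TPM in both wild-type libraries and passed the low-value filter through the null libraries. The others were Eno1b, Bmpr1a, Tppp, Glt1d1 and Cyp26b1. In the other direction 6 genes passed it only through wild type, namely H2-Q2, Gbp2b, Hist1h4b, Cck, Emp1 and Kcnq1.

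Several other large rises were in genes of unrelated function. Cdk5rap1, which modifies mitochondrial transfer RNA, rose from 5.98 and 4.82 TPM to 46.3 and 52.8 TPM, by 2.98 ± 0.37 (limma adjusted p = 0.00897). It was the 1 called among 49 transfer RNA modifying enzymes (2.04%, against 0.817% of all genes). Zfp69 and Zfp949, zinc-finger proteins, rose by 2.50 and 1.80. Ncoa4, the receptor that delivers ferritin to autophagosomes, rose from 27.3 and 43.8 TPM to 163 and 171 TPM, by 2.24 ± 0.23 (limma adjusted p = 0.00327). Slc28a2, a nucleoside transporter, rose from 10.98 and 14.1 TPM to 62.6 and 40.3 TPM, by 1.93, and Dctd, a deaminase of deoxycytidylate, from 35.8 and 52.7 TPM to 116 and 240 TPM, by 1.91. Adgrl3, an adhesion receptor of the latrophilin family, rose from 13.5 and 15.0 TPM to 55.0 and 58.9 TPM, by 1.92. Zbtb16, the transcription factor PLZF, rose from 2.10 and 2.15 TPM to 13.2 and 9.67 TPM, by 1.98. Kcnip3, Tppp, Glt1d1, Ankle1, Clec9a, Cyp26b1 and Dnah8 completed the 20 largest, with differences from 1.64 to 2.30. Of the 8 fits that leave out a library, Ncoa4 was called in 8, Slc28a2 and Zfp949 in 6, Zfp69 in 5, Cdk5rap1 and Adgrl3 in 4, Zbtb16 in 2 and Dctd in 1. Of the last 7 genes, Ankle1 was called in 5, Glt1d1 and Clec9a in 2, Kcnip3 in 1, and Tppp, Cyp26b1 and Dnah8 in none.

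**Figure D3:**
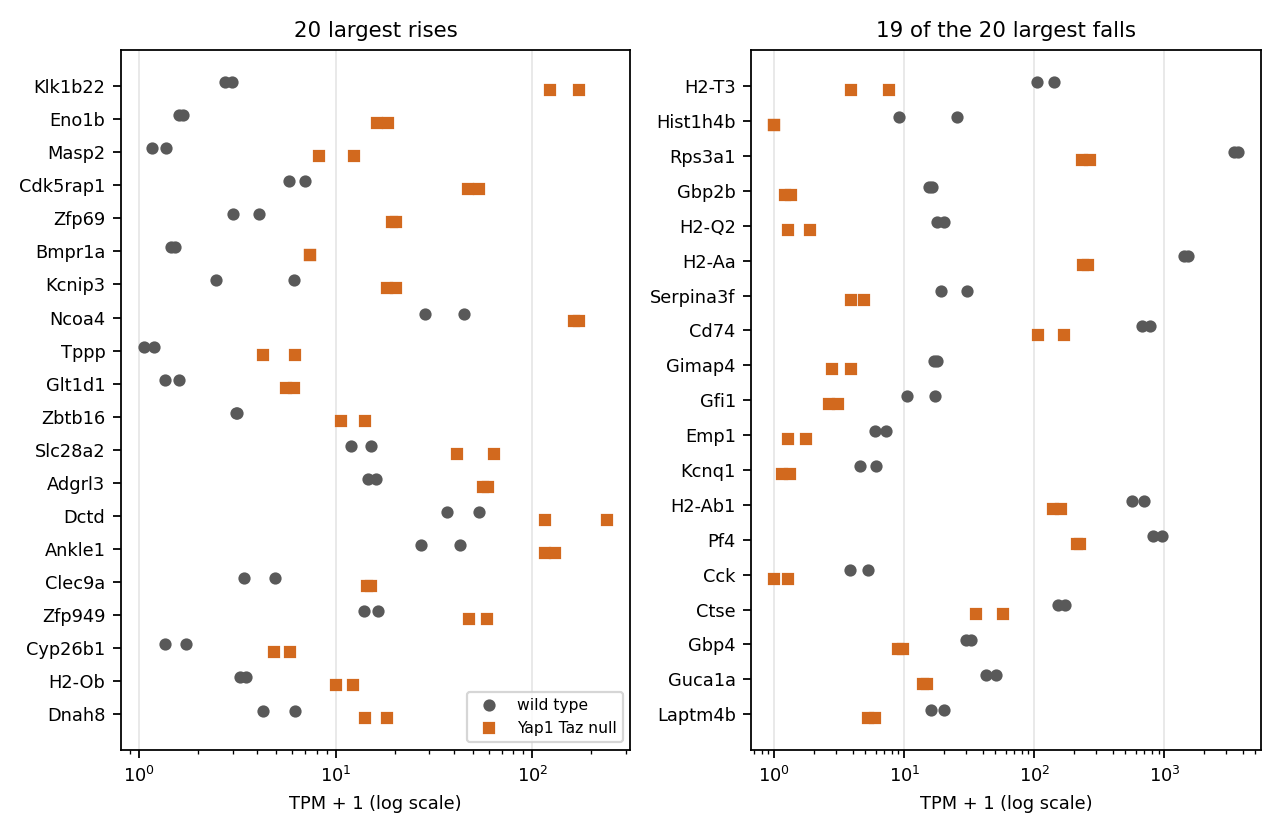
TPM + 1 (horizontal axes, log scale) in the 2 wild-type (grey circles) and 2 Yap1 Taz null libraries (orange squares) for the 20 largest called rises and 19 of the 20 largest called falls, ordered by log2 difference. No gene shown has overlapping groups, and in the right panel H2-Aa, H2-Ab1, Cd74, Pf4 and Rps3a1 fall from levels above 500 TPM.

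BMP and TGF-β receptors signal through SMAD proteins. Of 32 measured genes of this pathway 2 were called (6.25%, against 0.817% of all genes), both higher. Skil, the SMAD repressor SnoN (chromosome 3, 31095058 to 31122577), stood at 50.1 and 52.5 TPM in wild type and at 141 and 139.6 TPM in the null, a log2 difference of 1.43 ± 0.13 (limma adjusted p = 0.00123). Bmpr1a, a type I receptor for BMPs, rose from 0.448 and 0.522 TPM to 6.399 and 6.43 TPM, by 2.32 ± 0.30 (limma adjusted p = 0.0103), and it passed the low-value filter only through the null libraries. Bmpr2, its type II partner, was at 18.6 and 25.1 against 35.1 and 43.9 TPM and was not called. The list median of 0.11 was close to that of all genes.

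Immediate early genes, which are switched on within minutes of a stimulus, had 3 of 35 members called (8.57%, against 0.817% of all genes), all higher. Egr1 rose from 504.7 and 514.7 TPM to 871 and 1009 TPM, by 0.88 ± 0.11 (limma adjusted p = 0.00897). The orphan nuclear receptor Nr4a2 rose from 278 and 306 TPM to 493 and 561 TPM, by 0.85, and Zfp36l1, which speeds decay of messages with AU-rich elements, from 114 and 116 TPM to 189.7 and 233 TPM, by 0.86. Nr4a2 was also the 1 called among 22 quiescence genes and cell cycle inhibitors (4.55%, against 0.817% of all genes). In that list 20 members lay above 0, where 7851 of all 12243 genes did, and the median was 0.33. Nr4a1 was at 471 and 433 against 639 and 661 TPM and Klf4 at 50.5 and 47.6 against 80.5 and 79.0 TPM, neither called. Of the 35 immediate early genes, 12 were higher and 0 lower at an unadjusted p under 0.05 in limma (34.3%, against 14.5% of all genes). Without overlap between the groups, 19 were higher and 1 lower, against 32.8% and 14.7% of all genes. The median of the immediate early list was 0.14, near that of all genes, and without a library 0 to 3 of its members were called.

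Gfi1, a repressor that restrains stem cell division, was the 1 called of 28 stem cell transcription factors (3.57%, against 0.817% of all genes). It stood at 16.3 and 9.52 TPM in wild type and at 1.63 and 2.09 TPM in the null, a log2 difference of −2.24 ± 0.33 (limma adjusted p = 0.0195). In the Scribble null libraries it was at 19.6 and 14.02 TPM and in the triple null at 12.6 and 10.6 TPM, so the 2 Yap1 Taz null libraries were below the other 6. Mecom, which maintains long-term stem cells, was at 159 and 168 against 236 and 243 TPM, without overlap and with a limma adjusted p of 0.0701. None of 28 stem cell surface genes was called in limma. At an unadjusted p under 0.05, 5 were higher and 2 lower (25.0%, against 14.5% of all genes). The receptor Kit, at 268 and 281 against 403 and 532 TPM, had the smallest p of these (limma adjusted p = 0.0614).

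Among abundant genes, Chd9, a chromodomain helicase, had the clearest rise in these tables. It stood at 448 and 453 TPM in wild type and at 1181 and 1222 TPM in the null, a log2 difference of 1.41 ± 0.10 (limma adjusted p = 0.000384). In the table of the whole series that the authors also deposited, in a unit its header does not name, Chd9 was at 26.9 and 28.5 against 29.5 and 36.7, with a log2 difference of 0.24 and a limma adjusted p of 0.509. The 2 sources thus differ in level and in call for this gene. The heat shock protein Hsph1 rose from 244 and 247 TPM to 404 and 443 TPM, by 0.78, and was the 1 called of 42 stress genes (2.38%, against 0.817% of all genes). Ide, the insulin-degrading enzyme, Snap23, a vesicle fusion protein, and Slc38a6, an amino acid transporter, rose by 0.84, 0.78 and 1.00.

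S100a11, a calcium-binding protein, fell from 948 and 1012 TPM to 447 and 479 TPM, a log2 difference of −1.08 ± 0.10 (limma adjusted p = 0.00178). Pf4, a platelet chemokine that stem cells also transcribe, went from 816 and 958 TPM to 222 and 211 TPM, a difference of −2.02. The aspartic protease gene Ctse went from 150 and 172 TPM to 34.8 and 56.5 TPM, a difference of −1.83, and in the autophagy and lysosome list it was the 1 member called lower, with Ncoa4 the 1 called higher. Of the 45 measured members of that list 4.44% were called, against 0.817% of all genes. The serine protease inhibitors Serpina3f and Serpina3g fell by 2.46 and 0.91. Gimap4, a GTPase of lymphocytes, went from 16.9 and 15.9 TPM to 1.80 and 2.87 TPM, a difference of −2.41. The histone H4 gene Hist1h4b was at 24.2 and 8.11 TPM in wild type and was listed at 0 in both null libraries. Cck, a peptide hormone gene, was at 2.82 and 4.22 TPM in wild type and was listed at 0 in 1 null library and at 0.267 TPM in the other. The membrane protein gene Emp1, the potassium channel gene Kcnq1, the calcium sensor gene Guca1a and the lysosomal membrane protein gene Laptm4b fell by 2.14, 2.11, 1.69 and 1.67. Hist1h4b, Cck, Emp1 and Kcnq1 passed the low-value filter only through wild type.

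Several large differences were in genes with a near copy. Rps3a1, of the small ribosomal subunit, stood at 3449 and 3654 TPM in wild type and at 266 and 231 TPM in the null, a log2 difference of −3.83 ± 0.13. Summed with its 5 near-identical copies it was at 3504 and 3713 TPM and at 2519 and 2156 TPM, a log2 difference of −0.63 with a limma adjusted p of 0.0605. Among the copies, the processed pseudogenes Rps3a2 and Rps3a3, named after their values were seen, went the other way, from 7.44 and 12.4 TPM to 1429 and 1235 TPM and from 32.9 and 34.2 TPM to 816 and 682 TPM. Eno1b, a copy of the glycolytic enolase gene, rose from 0.602 and 0.666 TPM to 15.2 and 17.5 TPM, by 3.40, while the sum of Eno1b and Eno1 gave −0.38 (limma adjusted p = 0.202). A copy of at least 95% identity over 80% of the longest transcript was found for 8 of the 100 called genes.

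Genes of oxidative phosphorylation, ribosomes and the proteasome lay mostly below 0, by small amounts, while glycolysis (median 0.02), sterol (0.05) and transfer RNA modification genes (0.15) did not. Of all 12243 genes, 4392 lay below 0, 496 were lower at an unadjusted p under 0.05 in limma and 0.817% were called. Of 73 nuclear genes of oxidative phosphorylation, 65 lay below 0 and 48 were lower without overlap, against 14.7% of all genes, with a median of −0.33 and 28 lower at an unadjusted p under 0.05. Of the 73, 4.11% were called. The ATP synthase subunit Atp5e went from 265 and 277 TPM to 138 and 104 TPM, and Cox7a2 and Cox5a, of cytochrome c oxidase, from 219 and 188 TPM to 107 and 102 TPM and from 212 and 218 TPM to 129 and 116 TPM. They fell by 1.17, 0.95 and 0.81 and were the 3 members called, while 0 to 4 were called in the 8 fits that leave out a library. Of 77 cytosolic ribosomal protein genes 65 lay below 0, with a median of −0.24. The 2 called (2.6%) were Rps3a1, lower, and Rps18, higher (1379 and 1297 against 2467 and 2220 TPM). Of 31 constitutive proteasome genes 26 lay below 0, with a median of −0.21 and none called in limma, 7 being lower at an unadjusted p under 0.05. Of 76 mitochondrial ribosomal protein genes 52 lay below 0, with a median of −0.13 and none called in limma, and 13 were lower at that unadjusted p.

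No gene of the pathway that the deletion targets was called, where 0.817% of all genes were. At that share, lists this short hold few calls or none. None of 21 Hippo kinases and adaptors, 20 Hippo scaffolds, 3 TEAD and VGLL genes, 19 measured YAP and TAZ targets of other tissues or 20 polarity genes was called in limma. At an unadjusted p under 0.05 there were 2, 4, 0, 5 and 5 genes, against 14.5% of all genes. The kinase Map4k4 was at 57.7 and 70.4 against 95.7 and 83.6 TPM (limma adjusted p = 0.242). Tjp1, a tight junction scaffold, was at 10.2 and 13.1 against 2.76 and 4.52 TPM (limma adjusted p = 0.0756), and Pard3b, of the Par polarity complex, at 8.07 and 12.5 against 26.5 and 28.2 TPM (limma adjusted p = 0.0591). Of the targets, Tgfbi was at 20.7 and 21.3 against 9.98 and 11.7 TPM and Myc at 261 and 281 against 339 and 372 TPM, neither called. Of 29 targets listed 10 did not pass the low-value filter, so this list says little about these cells.

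Cell division genes were also without a call in limma. For 44 G1/S and replication genes the median was −0.07, with 3 lower at an unadjusted p under 0.05, and for 45 of G2/M and mitosis it was −0.11, with none at that p. Gins1, of the replicative helicase, was at 53.9 and 46.9 against 26.4 and 25.1 TPM (limma adjusted p = 0.232). No gene was called in the Wnt, Notch, p53, BCL2 and caspase, NF-κB and sterol lists. At an unadjusted p under 0.05 they had 2 (6.67%), 3 (15.0%), 4 (18.2%), 4 (15.4%), 8 (25.8%) and 4 genes (13.3%), against 14.5% of all genes. Among these, Fzd6, a Wnt receptor, was at 3.45 and 4.70 against 11.5 and 10.6 TPM (limma adjusted p = 0.0896), and the chemokine gene Ccl4 at 52.0 and 40.0 against 19.6 and 19.5 TPM (limma adjusted p = 0.0884).

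**Figure D4:**
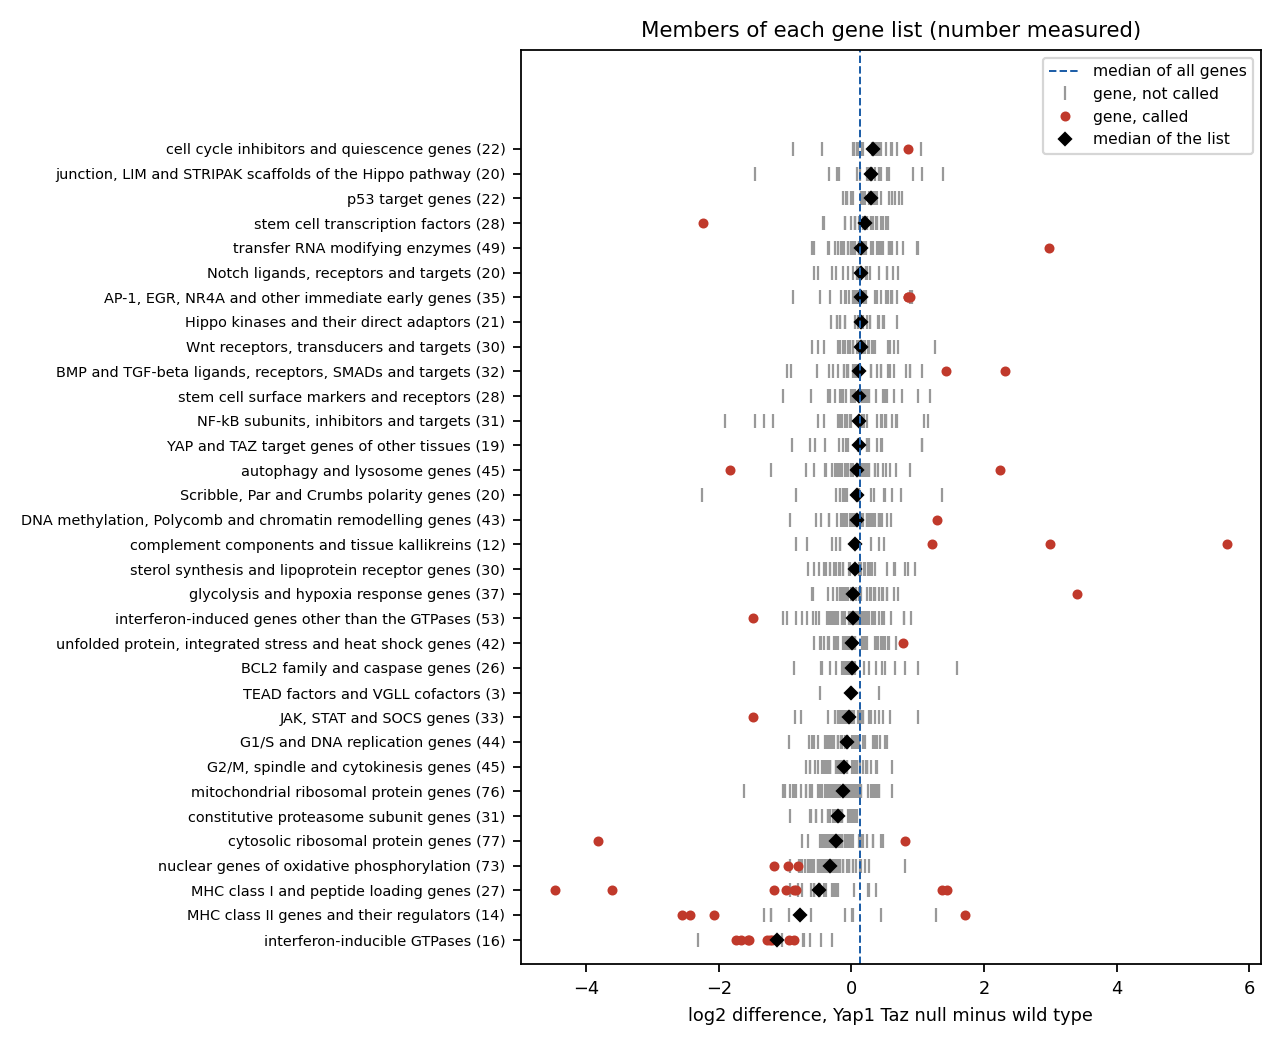
Log2 difference between Yap1 Taz null and wild type (horizontal axis) for the measured members of 33 gene lists, with the number measured in parentheses. Grey ticks are genes not called, red points called genes, black diamonds list medians, and the dashed line is the median of all genes at 0.13, from which the interferon-inducible GTPases at −1.12 lie farthest.

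Markers of other blood cells were set beside the called genes that they share. The megakaryocyte and platelet markers summed to 1620 and 1770 TPM in wild type, against 1140 and 1200 TPM in the null, and Pf4 was the 1 called of the 12 measured (8.33%, against 0.817% of all genes). Without Pf4 the other 13 markers summed to 807 and 810.0 TPM in wild type and to 922 and 992 TPM in the null, so the lower sum was that of Pf4, and 8 of the 12 measured lay above 0. The T and NK cell markers summed to 178 and 162 TPM and to 104 and 91.5 TPM, with Nkg7, a cytotoxic granule gene at 152 and 137 against 68.3 and 56.2 TPM, the 1 called of 6 measured (16.7%). Without Nkg7 the other 12 protein-coding markers summed to 25.2 and 24.1 TPM and to 35.8 and 35.3 TPM, and 5 of the 6 measured lay above 0. Of those 16 markers, 9 were under 1 TPM in all 4 libraries, among them Cd3e and Trac, and Trbc1, Trbc2, Ncr1 and Gzma were listed at 0. The monocyte, macrophage and dendritic markers summed to 247 and 297 TPM and to 258 and 223 TPM. Of these 15, 7 were under 1 TPM in all 4, among them Csf1r, Itgax and Adgre1, while Lyz2, Cd68 and Clec9a were the most abundant. Clec9a rose from 2.43 and 3.89 TPM to 14.1 and 13.5 TPM. The B-lineage markers summed to 19.3 and 28.3 TPM and to 26.0 and 35.9 TPM. Of these 15, 6 were under 1 TPM in all 4, among them Pax5 and Ebf1. Another 7 passed the low-value filter, and Cd79b, Ighm and Cd22 were the most abundant. The part of other cells in the MHC class II values was not tested, and fewer cells of a type and less RNA per cell cannot be told apart in bulk libraries.

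Position near the deleted genes was examined. Of 42 genes kept whose start lies within 10 Mb of that of Yap1 none was called in limma, with 10 (23.8%) at an unadjusted p under 0.05, against 14.5% of all genes. Of 57 around Wwtr1 10 (17.5%) had such a p and 1 (1.75%, against 0.817% of all genes) was called, Noct, a deadenylase-related gene named here after its values were seen, which rose by 0.90.

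Most called genes were not called as different from the other null genotypes in a direct test. In the same limma fit, 12 of the 100 differed from the Scribble null, 7 from the triple null, 3 from both and 84 from neither. These contrasts reuse the Yap1 Taz null libraries by which the 100 genes were picked. Shares among the 100 are therefore not comparable with those among all genes, and a difference not called does not show equal levels. Among all 12243 genes, 0.221% differed from the Scribble null (0.139% higher and 0.0817% lower in Yap1 Taz null) and 0.155% from the triple null (0.139% higher and 0.0163% lower). The 3 that differed from both were Klk1b22, Adgrl3 and Chd9, all higher. Klk1b22 was at 2.06 and 2.46 TPM in the Scribble null and at 2.24 and 1.52 TPM in the triple null, 5.48 ± 0.30 and 5.67 ± 0.30 below Yap1 Taz null on the log2 scale (limma adjusted p = 9.95e-05 and 0.000255). Adgrl3 was at 11.5 and 16.3 TPM and at 18.8 and 14.4 TPM, with differences of 1.98 and 1.73. Chd9 was at 575 and 522 TPM and at 680.2 and 723 TPM, with differences of 1.13 and 0.78.

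Skil, Zfp69, Zfp949 and Nr4a2 differed from the triple null, which carries the same Yap1 and Taz deletions. Skil was at 58.6 and 57.6 TPM there, close to wild type and 1.26 below Yap1 Taz null (limma adjusted p = 0.0104), and at 142 and 151 TPM in the Scribble null. Nr4a2 was at 221 and 242 TPM in the triple null, 1.18 below Yap1 Taz null (limma adjusted p = 0.0128), and at 404 and 371 TPM in the Scribble null. Zfp69 was at 3.92 and 2.33 TPM in the triple null and at 10.8 and 9.32 TPM in the Scribble null. Zfp949 was at 19.1 and 15.5 TPM in the triple null and at 21.58 and 21 TPM in the Scribble null. For these 4 genes the triple null levels were nearer to wild type than to Yap1 Taz null.

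Rps3a1, S100a11, Gfi1, Gimap4, Eno1b, Masp2, Zfp36l1, Ide and H2-Aa differed from the Scribble null. S100a11 was at 1094 and 1064 TPM in the Scribble null, above wild type, while the triple null had 531 and 560.4 TPM. Its difference between Yap1 Taz null and Scribble null was −1.22 ± 0.10 (limma adjusted p = 0.00164). Masp2 and Eno1b were under 1 TPM in the Scribble null (0.405 and 0.400 TPM, and 0.522 and 0.208 TPM) and at 5.29 and 8.97 TPM and 16.5 and 17.2 TPM in the triple null. Rps3a1 was at 3813 and 3160 TPM in the Scribble null and at 247 and 247 TPM in the triple null. For these 4 genes the 4 libraries with the Yap1 and Taz deletions lay on one side of the 4 without. Rps3a1 and Eno1b are given here without their near-identical copies. The copy Rps3a2 went the other way, at 11.2 and 12.6 TPM in the Scribble null and at 1546 and 1574 TPM in the triple null. Eno1 was at 138.5 and 125.9 TPM in the Scribble null and at 101.5 and 109.7 TPM in Yap1 Taz null. H2-Aa, lower than wild type in all nulls, was at 127 and 105 TPM in the Scribble null, 1.08 below Yap1 Taz null (limma adjusted p = 0.0141).

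**Figure D5:**
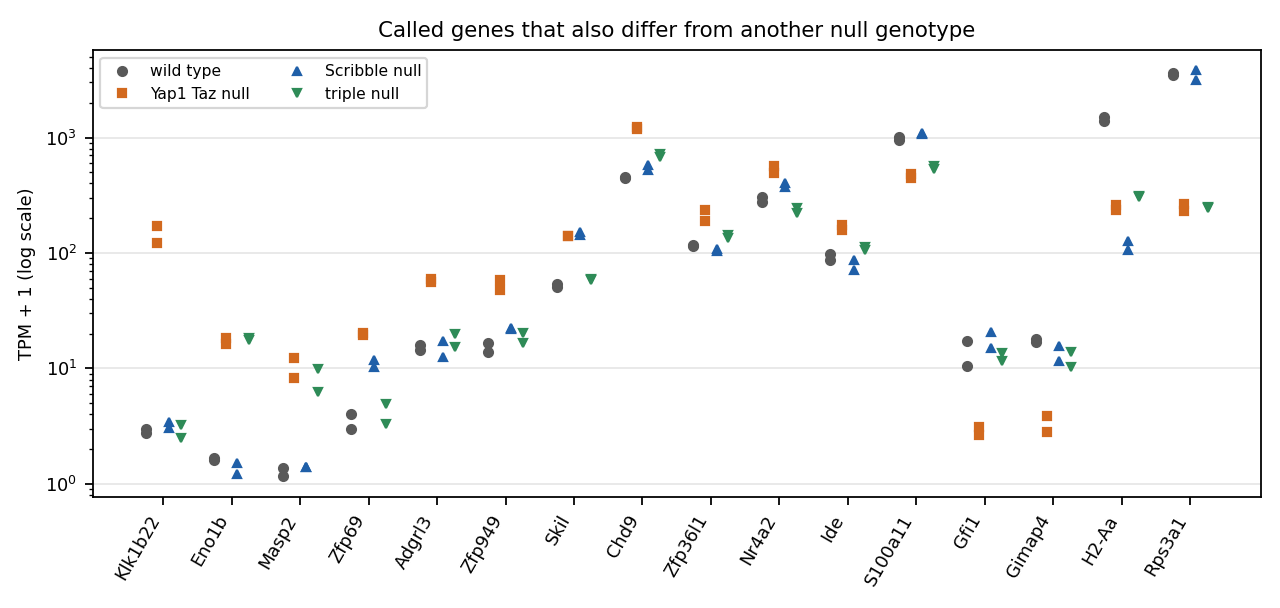
TPM + 1 (vertical axis, log scale) of the 16 genes called in Yap1 Taz null against wild type that also differ from Scribble null or triple null, with 2 libraries for each genotype. Klk1b22, Adgrl3 and Chd9 are highest in the Yap1 Taz null squares, Skil is at 58.6 and 57.6 TPM in the triple null, near wild type, and Eno1b, Masp2, S100a11 and Rps3a1 are alike in Yap1 Taz null and triple null. Eno1b and Rps3a1 are shown without their near-identical copies.

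The second table that the authors deposited, of the whole series, gave a value for 96 of the 100 called genes, all 96 in the same direction, and 56 were called there. The fold differed by over 1.5 times for 12 genes, which are Chd9, H2-T3, H2-Q2, H2-T22, Gbp2b, Hist1h4b, Cck and Emp1, and Necap1, Miga1, Isy1 and Ffar2, the last 4 named after their values were seen. Gbp2b was at 16.6 and 18.9 against 7.38 and 14.9 in that table, with a log2 difference of −0.70 and a limma adjusted p of 0.332. H2-T3 was at 1199 and 37.0 against 2.07 and 1.69 there, with a limma adjusted p of 0.0927. H2-Q2 and Hist1h4b were called in both tables, and the other 10 were not called in that one.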

How the data were processed

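RNA of sorted stem cells was sequenced in 8 libraries, 2 for each of 4 genotypes. Per the file headers, the authors deposited TPM per gene symbol, and each library sums to 1000000. They also deposited a series table of a linear signal per Ensembl gene, whose unit is not named, used here as an alternative. The submitters' processing notes name TopHat and mm10, and quantifier and annotation are not stated there. Groups came from the labels. TPM keeps no read depth, and, apart from that, 2 libraries per group limit the precision.

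Genes with at least 1 TPM in 2 of the 4 libraries were kept, and log2(TPM + 1) was fitted in limma 3.58.1 (R 4.3.3) with trend over all 8 libraries, with 4 residual and 4.1 prior degrees of freedom. Adjusted p-values are Benjamini-Hochberg values over 14893 genes, and the scripts were tested on simulated data. Symbols were placed with GENCODE M21 (14470 matched) or RefSeq GRCm38.p6 (185), which gave the promoters, and 238 stayed unmatched. Near-identical copies were sought with BLAST 2.17.0. Figures and summaries used Python 3.11.15.

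Named genes are Yap1 and Wwtr1, the 20 largest called differences and the 12 most abundant called genes per direction, and, of each list, called members or up to 3 of smallest p. Other genes were named after their values were seen. The members and lists were chosen with earlier results of these data known. There were 19 alternatives. Results on some items are not reported here.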

Additional observations from a re-analysis of the deposited data

Results flagged for a closer look

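Besides differing from wild type, 16 of the 100 called genes differed in a direct test between Yap1 Taz null and another null genotype (limma adjusted p under 0.05). All values are log2 differences, Yap1 Taz null minus the other genotype, and each comparison uses 2 libraries against 2. The Yap1 Taz null libraries are those by which the 100 genes were picked.

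Against Scribble null, the genes higher in Yap1 Taz null were Klk1b22 (5.48), Eno1b (3.67), Masp2 (2.84), Adgrl3 (1.98), Chd9 (1.13), Ide (1.08), H2-Aa (1.08) and Zfp36l1 (1.00). The genes lower in Yap1 Taz null were Rps3a1 (−3.80), Gfi1 (−2.62), Gimap4 (−2.04) and S100a11 (−1.22). Eno1b and Rps3a1 are given without their near-identical copies. Against triple null, those higher in Yap1 Taz null were Klk1b22 (5.67), Zfp69 (2.29), Adgrl3 (1.73), Zfp949 (1.53), Skil (1.26), Nr4a2 (1.18) and Chd9 (0.78). Y-linked Eif2s3y, Kdm5d and Ddx3y were also lower in Yap1 Taz null than in both other nulls, by −3.51, −2.53 and −3.09 against Scribble null and by −3.54, −2.80 and −3.23 against triple null. The part of that difference in these values was not tested.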

How the results depend on the processing

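Of 19 alternatives, the counts of calls moved most when a library was left out. Without 1 library, Yap1 Taz null against wild type gave 10 to 46 genes higher and 16 to 42 lower, against 56 and 44. Higher calls were 34 with no filter on low values, 33 with median-ratio scaling and 17 with the 4 libraries alone, and lower calls were 25 with those 4 libraries and 25 in the table of the whole series. Against Scribble null (17 higher, 10 lower), leaving out a library gave 5 to 26 and 2 to 17. No filter gave 5 and 4, the table of the whole series gave 11 and 6, limma without trend 11 higher and the replicate block 5 lower. Against triple null (17 higher, 2 lower), leaving out a library gave 1 to 8 and 0 to 1. No filter gave 2 and 0, the replicate block 3 and 0, the table of the whole series gave 7 and 1, and limma without trend 6 higher. A pseudocount of 0.1 TPM and a filter of 5 TPM each gave 4 lower. The cause of these shifts was not tested, apart from the smaller number of samples in fits that leave one out.

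With the replicate block, Yap1 Taz null against wild type gave 38 higher and 37 lower. The labels give each library an experiment number. Over all genes kept, same-numbered libraries did not deviate together (correlations of −0.053 to 0.027). Whether they share an experiment that acts on some genes was not tested. The direction reversed for Eno1b summed with Eno1 (−0.38). Of the 100 called genes, 19 were called in every fit that leaves out a library.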
